A study of Homo sapiens with 6 samples.

Results

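The TREX complex links the making of messenger RNA to its passage out of the nucleus, and 10 of its genes were followed here by gene symbol: ALYREF, THOC1, THOC2, THOC3, THOC5, THOC6, THOC7, DDX39A, DDX39B and CHTOP. Of these 10 genes, 9 had values in both comparisons, among 11679 genes in all, and DDX39B was not analysed here. RNA came from 786-O cells, an established human clear cell renal carcinoma line, grown in RPMI medium with 10% FBS under atmospheric oxygen. The 3 groups of 2 libraries each were transfected with a non-targeting siRNA (Qiagen Allstars Neg Ctrl), ALYREF siRNA5 or ALYREF siRNA8 (Qiagen FlexiTube siRNAs), all with the DharmaFECT 1 reagent. Cells of all groups were split after 24 h and harvested after 48 h. All groups share 1 cell line and 1 non-targeting siRNA, and nothing in the labels says whether the duplicates came from separate cultures. The p-values below therefore rest on the spread between duplicates as modelled in the authors' DESeq2 fit, a spread that may be technical. No values per library were at hand to observe it.

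TREX consists of the THO complex, a large multi-subunit scaffold, the DEAD-box ATPases DDX39B and DDX39A, and adaptor proteins such as ALYREF and CHTOP. The ATPase loads adaptors onto spliced and capped RNA, and the adaptors then help to hand the RNA to the export receptor, the NXF1 and NXT1 heterodimer, which carries it through the nuclear pore. ALYREF also gathers in nuclear speckles, the bodies rich in splicing factors that the series is about.

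The authors' deposited tables give for each gene 1 mean normalized count over the libraries and a log2 fold change against the non-targeting control with its standard error (SE) for each siRNA. From these a level per group was rebuilt, which is the mean of normalized counts in 2 libraries under equal weight of the 3 groups. Its 95% interval comes from the rebuilt spread, the spread between libraries that the authors' standard errors imply. The threshold for a call was an adjusted p of 0.05 over the whole table. In bulk RNA of this kind, fewer cells that express a gene and less of its RNA per cell cannot be told apart. The 9 measured genes had mean normalized counts from 240.3 (THOC6) to 3294 (DDX39A), against a median of 459 over all genes, and their rebuilt spread beyond counting error was 3.4% to 7.37% for the 8 partners of ALYREF. All 8 markers chosen for the renal carcinoma line had values, with means from 69.0 to 53093.5 (VIM, vimentin), and 2 of 11 markers of immune, endothelial, fibroblast and keratin-rich cells had one, CD68 at 202 and PDGFRB at 21.2 mean normalized counts.

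ALYREF, the RNA-binding export adaptor and the target of both siRNAs, stood at 7711 normalized counts in the control (95% interval 7146 to 8320). Its level was 437 with siRNA5 (396 to 483) and 604 with siRNA8 (550.0 to 663). The 3 intervals did not overlap, and the siRNA5 group was the lowest. In the authors' deposited tables the log2 fold changes were -4.14 (SE 0.096) and -3.67 (SE 0.085), and 1 gene of the whole table had a lower value than ALYREF in each comparison. The difference between the siRNAs was -0.47 (95% interval -0.72 to -0.22; Wald test on the authors' DESeq2 values, adjusted p = 0.00152). The 3 genes with the pair of log2 fold changes nearest to that of ALYREF over these 2 comparisons were PLPP7, CCNA1 and TMEM52B, at distances of 1.93, 2.37 and 2.60 log2 units. Their means were low, at 14.7, 40.3 and 18.9 normalized counts.

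**Figure D1:**
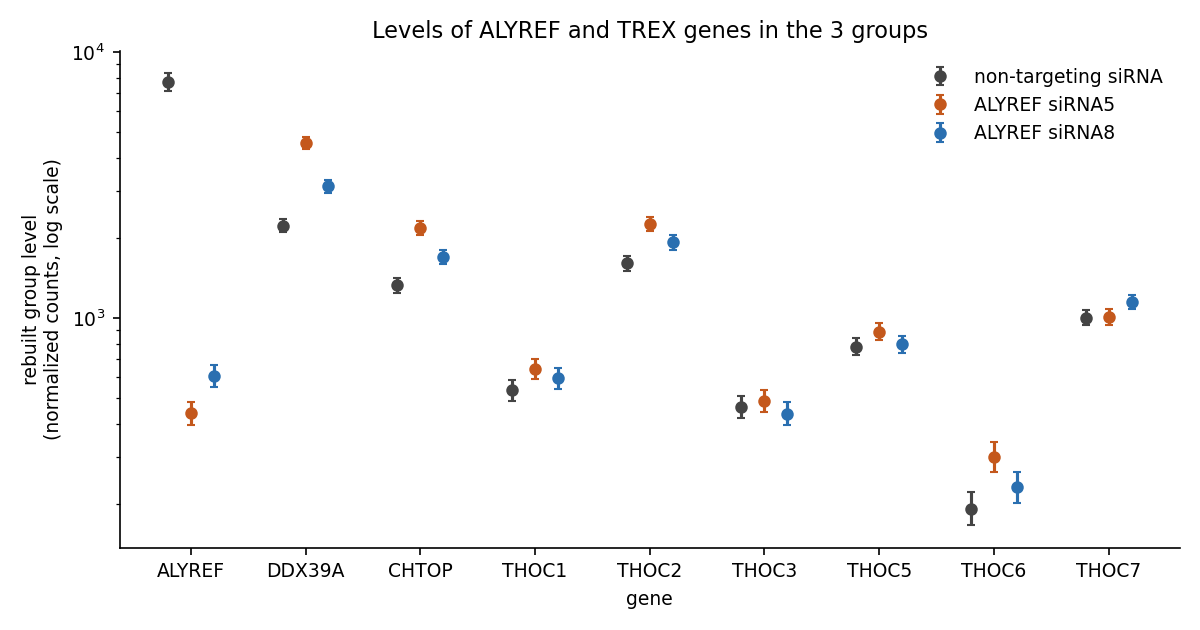
Rebuilt level of each of the 9 measured genes (normalized counts, log axis) in cells with the non-targeting siRNA (grey), ALYREF siRNA5 (orange) and ALYREF siRNA8 (blue), 2 libraries per group; bars are 95% intervals from the rebuilt spread. ALYREF drops from 7711 to 437 and 604, while DDX39A rises from 2219 to 4542 and 3121.

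With siRNA5, 6 of the 8 partners rose and 0 fell. With siRNA8, 4 rose and 0 fell, and at an unadjusted p under 0.05 from the authors' DESeq2 fit the counts were the same, 6 and 4 higher and 0 lower. Over all 11679 genes, 24.4% were called higher and 22% lower with siRNA5, and 21% higher and 20.5% lower with siRNA8, all at the adjusted threshold. Among the 7631 genes with a mean at or above that of THOC6, the least abundant partner, 31.4% were called higher with siRNA5 and 26.5% with siRNA8. The median log2 fold change of the 8 partners was 0.38 with siRNA5, or 1.30-fold, and 0.23 with siRNA8, or 1.17-fold, against 0.01 over all genes in each comparison. Both comparisons share the same control libraries, so they are not independent of each other.

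DDX39A, the DEAD-box ATPase also called URH49 and the close paralog of DDX39B, had the largest change among the partners. Its level was 2219 normalized counts in the control (95% interval 2099 to 2346), 4542 with siRNA5 (4314 to 4782) and 3121 with siRNA8 (2959 to 3292). None of these intervals overlapped, and siRNA5 gave the highest level. It rose 2.05-fold with siRNA5 (95% interval 1.90 to 2.21; adjusted p = 1.93e-73) and 1.41-fold with siRNA8 (1.30 to 1.52; adjusted p = 8.36e-17) by the DESeq2 values of the authors' deposited tables. A larger rise was listed for 182 genes, or 1.56% of all, with siRNA5 and for 994 genes, or 8.51%, with siRNA8.

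Since reads of paralogs can be confused, the coding sequences of DDX39A and DDX39B were compared in the GENCODE release 29 transcripts. Of 1281 aligned coding bases 80.0% were identical, and the longest identical run was 26 bases, shorter than the 42 bases of a read. The stretch around that run is shown to make the difference between both genes visible, with the 14 differing bases in capitals (coding bases 349 to 434 of DDX39A and 352 to 437 of DDX39B, 5′ to 3′).
DDX39A: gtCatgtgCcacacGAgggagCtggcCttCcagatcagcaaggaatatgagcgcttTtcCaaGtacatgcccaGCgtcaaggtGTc
DDX39B: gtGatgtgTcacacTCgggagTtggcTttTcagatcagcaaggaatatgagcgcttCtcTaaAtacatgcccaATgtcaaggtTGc
No window of 42 bases of the DDX39A transcript, 0 of 1430, occurred in a transcript of another gene in that annotation.

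CHTOP, an arginine-methylated adaptor that binds the ATPase and NXF1 as ALYREF does, followed the same order of groups. Its level was 1326 normalized counts in the control (95% interval 1245 to 1412), 2180.2 with siRNA5 (2057 to 2310.4) and 1691 with siRNA8 (1592 to 1795). These intervals did not overlap either. The rise was 1.64-fold with siRNA5 (95% interval 1.51 to 1.79; adjusted p = 2.75e-28) and 1.28-fold with siRNA8 (1.17 to 1.39; adjusted p = 3.45e-07) by the DESeq2 values of the authors' deposited tables.

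Among the 6 THO subunits, 4 rose with siRNA5 and 2 with siRNA8, with medians of 0.23 and 0.18 on the log2 scale. Among all genes with a mean at or above that of THOC6, 31.4% and 26.5% were called higher, so the count with siRNA8 is near the background. THOC2, the largest subunit and the scaffold of THO, was the THO gene that rose with both. Its level was 1603 normalized counts in the control (95% interval 1505 to 1708), 2264 with siRNA5 (2130.3 to 2405) and 1922 with siRNA8 (1806 to 2045). The intervals of the 3 groups did not overlap. In the authors' deposited tables its log2 fold changes were 0.50 (SE 0.065, DESeq2 adjusted p = 2.64e-13) and 0.26 (SE 0.065, adjusted p = 0.000293).

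THOC6, a WD-repeat subunit, was the least abundant of the genes, with 191 normalized counts in the control (95% interval 166 to 221), 299.6 with siRNA5 (263 to 341) and 230.1 with siRNA8 (201 to 264). The control and siRNA5 intervals were apart, and that of siRNA8 overlapped both. It rose by 0.65 (SE 0.14, DESeq2 adjusted p = 2.87e-05) with siRNA5, and with siRNA8 its log2 value was 0.27 (SE 0.15, adjusted p = 0.131) in the authors' deposited tables. Its standard errors were the largest among the partners.

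THOC1, the subunit also known as HPR1 or p84, had 534 normalized counts in the control (95% interval 486 to 585), 641 with siRNA5 (586 to 701) and 593 with siRNA8 (542 to 649). It rose by 0.26 on the log2 scale with siRNA5 (SE 0.095, DESeq2 adjusted p = 0.0140), while the ratio to the control with siRNA8 was 1.11 (95% interval 0.977 to 1.26; adjusted p = 0.195) in the authors' deposited tables. THOC5, a coiled-coil subunit that pairs with THOC7, had 780 normalized counts in the control, 887 with siRNA5 and 795 with siRNA8. It rose 1.14-fold with siRNA5 (DESeq2 adjusted p = 0.0318) and had a ratio of 1.02 with siRNA8 (95% interval 0.919 to 1.13; adjusted p = 0.806) in the authors' deposited tables. Both rises were small, and at a threshold of 0.01 neither was called.

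THOC7 had the opposite order. Its level was 999 normalized counts in the control (95% interval 936 to 1067), 1008 with siRNA5 (944 to 1076) and 1148 with siRNA8 (1077 to 1224), so that the siRNA8 group lay above the others. In the authors' deposited tables it rose 1.15-fold with siRNA8 (DESeq2 adjusted p = 0.00918) and had a ratio of 1.01 with siRNA5 (95% interval 0.918 to 1.11; adjusted p = 0.909).

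THOC3, the other WD-repeat subunit, had 461 normalized counts in the control, 488 with siRNA5 and 436 with siRNA8, with 95% intervals that all overlapped. Its log2 fold changes in the authors' deposited tables were 0.08 (95% interval -0.11 to 0.28; DESeq2 adjusted p = 0.529) and -0.08 (-0.28 to 0.12; adjusted p = 0.563). Its values are uncertain, because 82.6% of the 42-base windows of its transcript also occur in AC106795.1, another gene annotated in GENCODE release 29. The same share was 2.10% for ALYREF, 2.55% for THOC5 and 0% for DDX39A, CHTOP, THOC1, THOC2, THOC6 and THOC7.

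**Figure D2:**
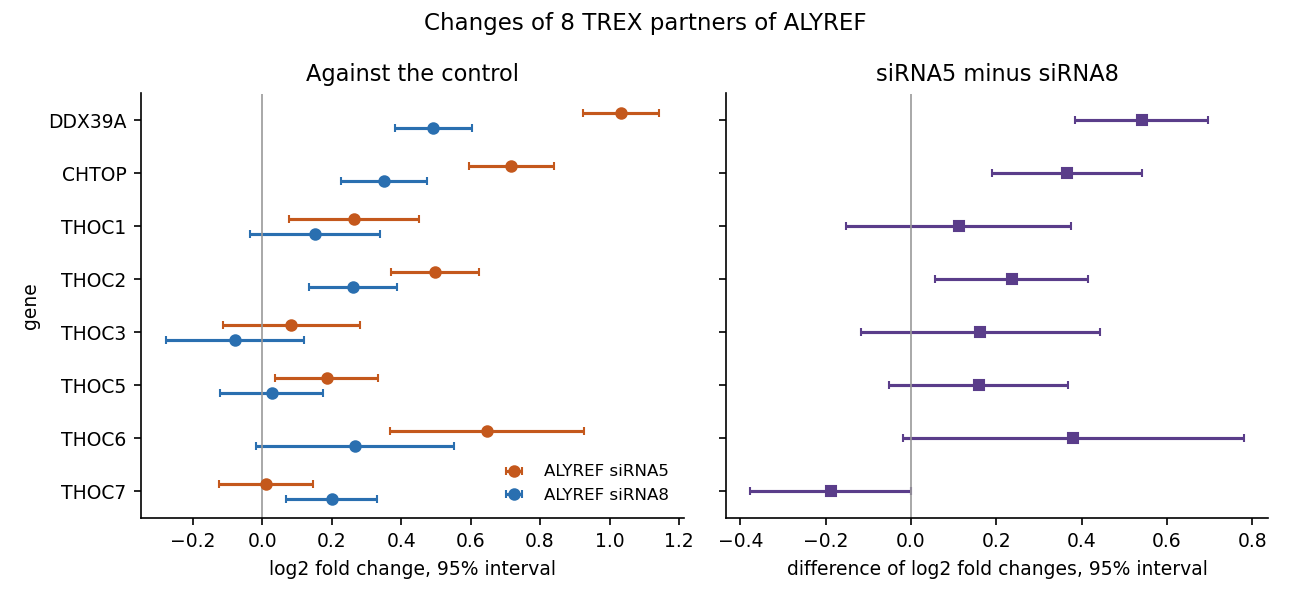
Left, log2 fold change of each of the 8 partners against the control with siRNA5 (orange) and siRNA8 (blue); right, the difference of both; bars are 95% intervals over 2 libraries per group. DDX39A, CHTOP and THOC2 lie above 0 with both siRNAs and in the difference, and THOC7 is the gene with a negative difference.

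The siRNAs were then set against each other, to ask where the partners responded differently. In this comparison of the authors' DESeq2 values by a Wald test, 3 of the 8 partners were higher with siRNA5 and 0 lower, and at an unadjusted p under 0.05 the counts were 3 and 1. This test takes the standard errors of both tables as independent, although they share the control libraries. With the covariance of the shared controls rebuilt, 4 partners were higher and 1 was lower, against 24.9% and 23.2% of all genes. Without it, over all genes 17.2% were called higher and 14.8% lower with siRNA5. DDX39A differed by 0.54 (95% interval 0.39 to 0.70; adjusted p = 2.16e-10), CHTOP by 0.37 (0.19 to 0.54; adjusted p = 0.000295) and THOC2 by 0.24 (0.06 to 0.42; adjusted p = 0.0342) on the log2 scale. THOC6 had a difference of 0.38, wide in its interval (-0.02 to 0.78; adjusted p = 0.147), and was called with the rebuilt covariance (Wald test, adjusted p = 0.0151). The interval of THOC7 was negative (-0.38 to -1.14e-05), with an adjusted p of 0.125, or 0.0131 with the rebuilt covariance. For THOC1, THOC3 and THOC5 the differences of 0.11, 0.16 and 0.16 had intervals reaching from at lowest -0.15 to at highest 0.44, with 0 inside each. Of the 8 partners, 7 had the larger log2 value with siRNA5, and THOC7 did not. This count goes by sign alone, and the intervals of THOC1, THOC3, THOC5 and THOC6 held 0. Over all genes the median difference was 0.0005, so a positive sign was no rarer than a negative sign. The siRNA that left less ALYREF was siRNA5, but with 2 siRNAs, whether the partners follow the remaining ALYREF was not tested.

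Levels can be compared between genes only per length, so the rebuilt levels were divided by the length of the longest principal transcript of each gene in GENCODE release 29. In the control, ALYREF had 7087 normalized counts per kb, 4.70 times as many as DDX39A with 1508. THOC7 followed with 1009.5 normalized counts per kb and CHTOP with 633. THOC3, THOC2 and THOC1 came next at 290.04, 286 and 256 normalized counts per kb, neighbours whose 95% intervals overlapped. THOC5 was at 164 and THOC6 at 135 normalized counts per kb, and their intervals also overlapped. The place of THOC5 depends on the transcript, since its shortest principal transcript of 2374 bases in place of 4753 bases gives 328.5 normalized counts per kb and moves it from rank 8 to rank 5, an alternative chosen after seeing the data.

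After knockdown the order changed at the top. Per kb, DDX39A became the most abundant of the 9 with both siRNAs, at 3088 normalized counts with siRNA5 and 2122 with siRNA8. DDX39A held rank 2 in the control with 1508 normalized counts per kb, and ALYREF, the siRNA target, fell below that level. The first rank of DDX39A would thus follow without a rise of its own. ALYREF moved to rank 5 with siRNA5, at 402 normalized counts per kb, and to rank 4 with siRNA8, at 555. Its interval with siRNA5 (364 to 444) overlapped that of THOC2, at rank 4 with 404 normalized counts per kb (379.8 to 429). The share of ALYREF in the summed level per kb of the 9 genes went from 62.3% in the control to 5.77% with siRNA5 and 9.45% with siRNA8. That of DDX39A went from 13.3% to 44.3% and 36.1%. The sum includes ALYREF and itself fell from 11367.9 normalized counts per kb in the control to 6963.6 with siRNA5 and 5873.6 with siRNA8. The share of DDX39A thus grew in part because the sum was smaller, while DDX39A itself rose 2.05-fold and 1.41-fold. Not divided by length, so that long transcripts weigh more, the 8 partners together held 8113 normalized counts in the control. They held 12310.1 with siRNA5 and 9936 with siRNA8, and DDX39A alone added 2323 and 902 on this measure. Among the THO subunits THOC7 had the highest level per kb, 7.49 times that of THOC6, the lowest, in the control and 7.15 times with siRNA8. This order takes the level of THOC3 as counted, which is uncertain for its shared windows. With siRNA5 the lowest was THOC5, whose place depends on the transcript chosen.

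The starts of DDX39A, CHTOP and THOC2, the partners that rose with both siRNAs, are shown as the 250 bases before the annotated start from RefSeq (GRCh38.p14, while the reads were aligned to hg19), with the letters CCAAT or ATTGG in capitals. CCAAT is the box read by the NF-Y factor. The windows lie at chr19:14419384-14419633 on the minus strand (DDX39A), chr1:153633816-153634065 on the plus strand (CHTOP) and chrX:123733053-123733302 on the minus strand (THOC2), each written 5′ to 3′ along its gene.
DDX39A: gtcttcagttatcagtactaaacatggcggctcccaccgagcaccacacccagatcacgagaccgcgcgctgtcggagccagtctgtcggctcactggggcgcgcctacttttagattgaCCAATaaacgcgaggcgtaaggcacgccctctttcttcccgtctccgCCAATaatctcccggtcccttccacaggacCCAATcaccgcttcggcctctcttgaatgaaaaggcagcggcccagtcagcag
CHTOP: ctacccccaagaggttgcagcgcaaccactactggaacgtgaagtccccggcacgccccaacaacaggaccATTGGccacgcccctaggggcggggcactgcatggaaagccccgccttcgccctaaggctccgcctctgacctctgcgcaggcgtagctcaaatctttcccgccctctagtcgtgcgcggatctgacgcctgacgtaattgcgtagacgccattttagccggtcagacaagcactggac
THOC2: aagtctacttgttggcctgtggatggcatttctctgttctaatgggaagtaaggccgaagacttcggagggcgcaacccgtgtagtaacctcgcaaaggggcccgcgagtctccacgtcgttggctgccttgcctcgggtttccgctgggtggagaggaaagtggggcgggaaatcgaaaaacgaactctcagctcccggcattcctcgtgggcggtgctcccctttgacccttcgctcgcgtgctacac
Among the 10 genes, 9 had an entry and THOC7 had none. CCAAT, searched on both strands, occurred 3 times in the DDX39A window, at -130, -83 and -53 relative to the start, once in those of CHTOP, THOC6 and ALYREF, and not in the other windows. Of 27305 windows of the same length, 33.0% held it at least once and 3.09% held it 3 times or more. The GC box letters GGGCGG, on both strands, occurred in the windows of CHTOP and THOC2, 2 times each, and in 42.3% of all windows. They also occurred once each in those of ALYREF, THOC1, THOC3 and THOC5, and not in those of DDX39A, DDX39B and THOC6. The other letters searched on both strands were CCGGAA (an ETS core, in 14.8% of all windows), TATAAA (11.1%) and TGACG (the core of the cAMP response element, 21.7%). None of these 3 occurred in the windows of DDX39A and THOC2, and TGACG occurred 2 times each in those of CHTOP, THOC1 and ALYREF. CCGGAA occurred in the windows of ALYREF, THOC3, THOC5 and DDX39B, and TATAAA in those of ALYREF and DDX39B. The motifs were picked with the expression results known, and a match is a description of letters only.

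The counts for the other genes of mRNA export and processing stand beside the shares over all genes, 24.4% higher and 22% lower with siRNA5 and 21% higher and 20.5% lower with siRNA8. These shares are at the adjusted threshold, and the counts at an unadjusted p have no such share beside them. In the export receptor list, NXF1, NXT1, NXT2 and the exportin XPO1, none of 4 genes was called with either siRNA by the authors' DESeq2 values, and at an unadjusted p under 0.05 the counts were 1 and 0. The log2 fold changes in the authors' deposited tables were -0.06 (SE 0.077) and -0.03 (SE 0.076) for NXF1 and -0.19 (SE 0.11) and 0.14 (SE 0.11) for NXT1. Of 9 further TREX-associated proteins, 4 rose and 3 fell with siRNA5, with a median of -0.06, and 1 rose and 0 fell with siRNA8 (3 and 0 at an unadjusted p under 0.05), with a median of 0.10. For FYTTD1, the adaptor UIF that can act beside ALYREF, the authors' deposited tables list a rise of 0.35 (SE 0.064) under siRNA5 and a log2 value of 0.04 (SE 0.064) under siRNA8, and the difference of 0.31 was called (Wald test on DESeq2 values, adjusted p = 0.00302). SARNP, which joins TREX through the ATPase, rose by 0.24 (SE 0.078) under siRNA5 in the authors' deposited tables and stood at -0.02 (SE 0.079) under siRNA8. POLDIP3, an adaptor related to ALYREF, and the cap-binding protein NCBP3 were not called with either, with log2 values of -0.06 and 0.13 and of -0.07 and 0.11 in the authors' deposited tables.

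Of 13 factors of 3′ end processing, the step that cuts and polyadenylates the RNA, 7 rose and 1 fell with siRNA5, against 24.4% and 22% over all genes, with a median of 0.22. With siRNA8, 9 rose and 0 fell by the same DESeq2 values, against 21% and 20.5% over all genes, and the median was 0.22. At an unadjusted p under 0.05 the counts with siRNA8 were the same. By the authors' deposited tables PCF11, a termination factor, rose by 0.38 (SE 0.086) and 0.70 (SE 0.084). The authors' deposited tables give CPSF6, a subunit of cleavage factor I, rises of 0.47 (SE 0.055) and 0.31 (SE 0.055). Of 5 exon junction complex genes, 2 rose with siRNA5 and 1 with siRNA8, and MAGOHB rose with both. Of 3 SR proteins that serve as export adaptors, 2 and 1 rose, and the authors' deposited tables give SRSF3 rises of 0.25 (SE 0.044) and 0.11 (SE 0.044). Of 6 nuclear RNA surveillance genes, 2 and 2 rose, with EXOSC10, a nuclear exosome ribonuclease, at 0.15 (SE 0.053) and 0.14 (SE 0.053) by the authors' deposited tables. In the TREX-2 complex, which works at the pore, 1 of 6 genes rose and 1 fell with siRNA5, and 2 rose and 1 fell with siRNA8. Of 7 genes acting at the cytoplasmic face of the pore, 1 rose and 1 fell with each siRNA. The lists after 3′ end processing hold 3 to 7 measured genes each, and read against the 31.4% and 26.5% of genes called higher at similar or greater abundance, 2 of 6 is near the background.

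**Figure D3:**
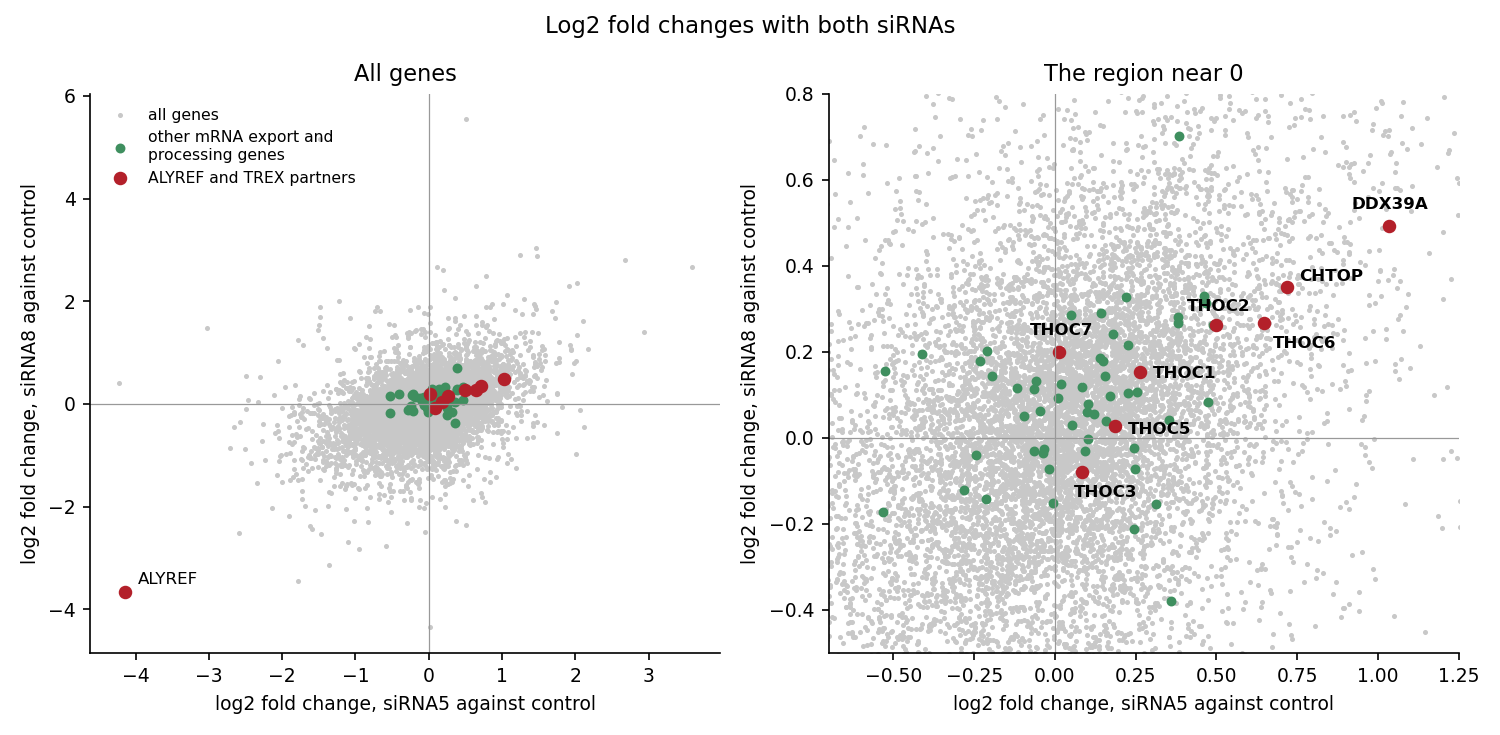
Log2 fold change with siRNA8 against that with siRNA5, for all 11679 genes (grey), the other mRNA export and processing genes (green) and ALYREF with its TREX partners (red); the right panel enlarges the region near 0. Both axes share the control libraries; ALYREF lies at -4.14 and -3.67, and DDX39A is the partner farthest to the upper right.

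**Figure D4:**
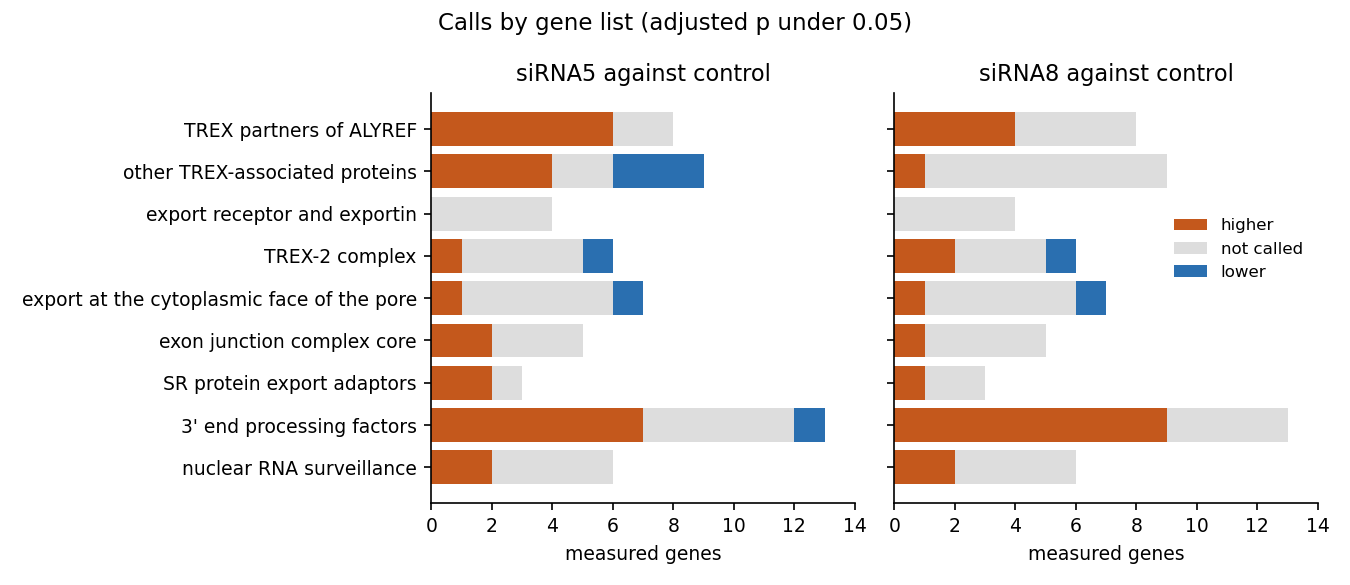
Number of measured genes called higher (orange), not called (grey) and called lower (blue) at an adjusted p under 0.05 in each gene list, for siRNA5 (left) and siRNA8 (right) against the control. The TREX partners show 6 of 8 higher with siRNA5 and 4 of 8 with siRNA8, and none lower. Over all genes the shares are 24.4% higher and 22% lower with siRNA5, and 21% and 20.5% with siRNA8.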

How the data were processed

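Polyadenylated RNA of 6 libraries in 3 groups was read as directional paired ends, per the labels' protocols. The submitters' processing notes name STAR, Picard, HTSeq, DESeq2 and hg19, with versions and settings not given in the sources used here. Deposited were 2 tables of the authors' results with 11681 rows each, 2 of them HTSeq counters that were left out and held 7.85% of the summed means. Per the file headers, the signal column (baseMean) holds the mean of normalized counts that the authors' fit used. Per the file headers, the authors gave log2 fold changes and their standard errors as log2 values, the Wald statistic as a score, and p-values with Benjamini-Hochberg adjusted p-values. The plan allowed for counts per library. Since the files hold results, the authors' values stand, and no depth per library was at hand.

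With python 3.11.15, numpy 2.4.6 and scipy 1.17.1, a Wald test set siRNA5 against siRNA8, dividing the log2 difference by the combined standard error of both tables (normal, two-sided, Benjamini-Hochberg over 11679 genes). Levels per group and the spread between libraries were rebuilt from the mean, both fold changes and both standard errors, assuming 6 libraries of equal weight and fold changes without shrinkage. The spread (dispersion) rebuilt from each table separately differed by under 10% for 99.1% of 8058 genes whose mean reached 200, by at most 3.27% for the 8 partners and by 20.7% for ALYREF. The procedures were run on simulated data with 200 changed genes. These data were made with equal weights, without shrinkage and with the same formula for the standard errors. They could therefore not test the assumptions of the rebuilding. Symbols were matched to GENCODE release 29 and RefSeq tables for lengths and sequences. The members, lists and tests were chosen with earlier results of these data known. Besides all members, the text names from each list up to 2 rises and 2 falls called with both siRNAs, a few fixed genes (NXF1, NXT1, SARNP, POLDIP3, FYTTD1, NCBP3 and, with no value, LUZP4), and the 3 genes nearest to ALYREF. Alternatives were a threshold of 0.01, Bonferroni adjustment, centring, a fold minimum of 1.2, a mean of at least 100 and the rebuilt covariance of the shared controls.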

Additional observations from a re-analysis of the deposited data

Results flagged for a closer look

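The effects of the siRNAs on 4 of the 9 genes, the target ALYREF among them, differed between siRNA5 and siRNA8. The test was the Wald test of the difference on the authors' DESeq2 values. Over all genes it called 17.2% higher and 14.8% lower with siRNA5. The log2 difference, siRNA5 minus siRNA8, was -0.47 for ALYREF itself (adjusted p = 0.00152), 0.54 for DDX39A (adjusted p = 2.16e-10), 0.37 for CHTOP (adjusted p = 0.000295) and 0.24 for THOC2 (adjusted p = 0.0342). Under the alternative thresholds, scalings and errors tried, the DDX39A difference stayed called, and those of the others were lost under 1 or more of them.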

How the results depend on the processing

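The 9 genes in 3 comparisons give 27 values, of which 16 were called. Of these 16, 7 stayed called under each alternative tried (ALYREF and DDX39A with both siRNAs, THOC2 and CHTOP with siRNA5, and the DDX39A difference), 9 were lost under 1 or more, and none changed sign. Of the 11 not called, 2 gained a call. Partners higher with siRNA5 numbered 6, and 3 under Bonferroni adjustment (THOC2, DDX39A and CHTOP) and 3 when tested against a fold of up to 1.2. With siRNA8 the count of 4 became 2 (DDX39A and CHTOP) and 1 (DDX39A). In the difference the count of 3 became 1 and 1 (DDX39A both times), and with the rebuilt covariance of the shared controls it became 4, while 1 partner, THOC7, was lower with siRNA5 (adjusted p = 0.0131) and THOC6 higher (adjusted p = 0.0151). A mean of at least 100 and centring on the median of all genes moved no call of the 9 genes. Over all genes, higher and lower calls fell from 2852 and 2571 to 1244 and 989 (Bonferroni) or 812 and 792 (fold 1.2) with siRNA5, from 2458 and 2389 to 932 and 980 or 536 and 744 with siRNA8, and from 2008 and 1731 to 759 and 597 or 646 and 520 in the difference, where the rebuilt covariance gave 2903 higher and 2712 lower. These alternatives are stricter by construction, and the rebuilt covariance gives a smaller standard error. No paired analysis was possible because the tables hold no values per library, and leaving out replicates, other count tools and other normalizations were not run for the same reason. THOC6 had the lowest mean, the widest standard errors and the highest rebuilt spread of the partners, and what part depth has in that was not tested.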

Other observations

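2 paralogs of the pore-bound export helicase moved in opposite directions, and each changed sign between the siRNAs. DDX19A had log2 fold changes of -0.41 (SE 0.078, adjusted p = 9.6e-07) with siRNA5 and 0.20 (SE 0.074, adjusted p = 0.0234) with siRNA8, and DDX19B had 0.36 (SE 0.13, adjusted p = 0.0128) and -0.38 (SE 0.13, adjusted p = 0.0141), by the DESeq2 values of the authors' deposited tables. The difference between the siRNAs was -0.61 for DDX19A (adjusted p = 2.41e-07) and 0.74 for DDX19B (adjusted p = 0.000437). Of the 42-base windows of their transcripts, 62.4% and 41.9% also occur in AC012184.2 or other annotated genes, so both values are uncertain. Among the nuclear cap-binding genes, NCBP2 fell by 0.21 (SE 0.058) with siRNA5 and rose by 0.20 (SE 0.056) with siRNA8, and ZC3H18, which binds the cap complex, fell by 0.53 (SE 0.072) under siRNA5 against a log2 value of 0.15 (SE 0.068) under siRNA8, both from the authors' deposited tables. These 4 genes were chosen after their values were seen.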
